A study of Homo sapiens with 8 samples.

Results

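The 9 genes described here are the transcription factors GATA1 and GATA2 and 7 genes of mast cells and basophils: CPA3, TPSAB1, TPSB2, HDC, MS4A2, FCER1A and HPGDS. They were chosen from the 34618 genes of the table because their expression was unexpected in these cells, so that their levels are given as a description with no test. Tests are given for differences between libraries: between the groups, between odd and even replicate numbers, and for 2 ratios of counts. The odd/even split was found in these same data, so its p-values are descriptive. All 9 passed the filter on low counts. Poly(A) RNA was sequenced in 8 libraries of cells labelled THP1, a line established from a human acute monocytic leukaemia. Expression of GATA factors and mast cell genes goes against that label, so the identity of the cells is in doubt, and it was not tested. The 4 RRM2_OE libraries came from cells carrying a mutant that the labels name iRxI/AxA, and the 4 MOCK libraries from cells carrying the empty vector. Cells of both groups received doxycycline at 2 µg/mL, so the groups differ in the construct and not in the drug. The labels do not say whether replicates were separate cultures, nor whether either line is a single clone, and p-values therefore measure the spread between these libraries, which may be technical.

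GATA1 and GATA2 are zinc finger transcription factors that bind short DNA words with GATA at their centre. GATA2 acts in blood stem and progenitor cells and is kept on in mast cells and basophils, whereas GATA1 drives erythroid and megakaryocyte development and is also used by mast cells, basophils and eosinophils. Mast cells and basophils store histamine and proteases in granules, carry the high-affinity IgE receptor on their surface, and release prostaglandin D2 when that receptor is crosslinked. HDC makes histamine, CPA3 encodes the granule protease carboxypeptidase A3, TPSAB1 and TPSB2 encode tryptases, FCER1A and MS4A2 encode the alpha and beta chains of the IgE receptor, and HPGDS makes prostaglandin D2.

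The libraries held 10994255 to 11686152 counts. Levels are CPM, counts scaled to a common library size, or the authors' RPKM, which also divides by exon length, where genes are compared with each other. RRM2, the small subunit of ribonucleotide reductase and the gene named in the group label, averaged 225 ± 8.33 CPM in RRM2_OE (range 215 to 236) and 123 ± 5.35 CPM in MOCK (range 116 to 128; SD, n = 4 each; log2 fold change 0.87, edgeR adjusted p = 5.64e-07). A gene was called where edgeR's quasi-likelihood test gave a Benjamini-Hochberg adjusted p below 0.05 over the 15286 genes tested. On that rule 1133 genes, 7.41%, were higher in RRM2_OE and 829, 5.42%, were lower, or 12.8% in all. Libraries numbered 1 and 3 also stood apart from those numbered 2 and 4 in both groups: a model with group and this odd/even split called 30.4% of genes between odd and even libraries. The mitochondrial share of counts was 8.02% to 9.51% in odd libraries and 6.43% to 7.69% in even ones, and the labels give no reason for the split.

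The start sites of 7 of the 9 genes were found in a RefSeq table of promoters on GRCh38.p14, each window running from 250 bases before to 50 bases after the start. The counts were made on hg19, so these windows serve for sequence only. They were searched on both strands for the 4 words AGATAA or AGATAG or TGATAA or TGATAG, the common form of the GATA factor binding word. No 2 of these words can start at the same base, although words on opposite strands can overlap. Of all 35116 windows of this length in the table, 25.0% held at least 1 word and 6.08% at least 2. CPA3 and HPGDS held 2 words each, and FCER1A and MS4A2 held 1 each. The windows of GATA1, GATA2 and HDC held none, which says only that these letters are not in these windows. The 4 windows with a word are printed because they show where the word lies relative to the start of each mast cell gene. Each is given 5′ to 3′ on the strand of the gene, with the words in capitals and the reverse complement in capitals where the word lies on the opposite strand.
CPA3, chr3:148865046-148865345, plus strand: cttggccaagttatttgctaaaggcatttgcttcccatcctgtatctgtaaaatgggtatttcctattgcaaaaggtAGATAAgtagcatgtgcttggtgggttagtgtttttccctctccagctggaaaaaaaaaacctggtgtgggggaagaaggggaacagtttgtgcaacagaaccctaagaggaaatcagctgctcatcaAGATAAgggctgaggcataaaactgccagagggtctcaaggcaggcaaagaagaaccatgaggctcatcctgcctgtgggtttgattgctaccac
HPGDS, chr4:94342787-94343086, minus strand: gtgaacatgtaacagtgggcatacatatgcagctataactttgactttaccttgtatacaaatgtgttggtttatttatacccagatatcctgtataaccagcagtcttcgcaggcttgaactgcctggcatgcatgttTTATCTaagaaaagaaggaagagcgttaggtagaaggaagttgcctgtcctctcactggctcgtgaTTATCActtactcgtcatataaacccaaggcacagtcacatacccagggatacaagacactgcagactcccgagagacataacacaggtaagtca
FCER1A, chr1:159302086-159302385, plus strand: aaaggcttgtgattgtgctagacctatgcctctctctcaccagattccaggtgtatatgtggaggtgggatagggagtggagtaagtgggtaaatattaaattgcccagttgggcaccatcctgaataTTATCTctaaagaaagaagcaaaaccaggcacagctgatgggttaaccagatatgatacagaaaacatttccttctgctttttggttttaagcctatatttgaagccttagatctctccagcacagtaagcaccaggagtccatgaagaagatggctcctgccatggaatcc
MS4A2, chr11:60088414-60088713, plus strand: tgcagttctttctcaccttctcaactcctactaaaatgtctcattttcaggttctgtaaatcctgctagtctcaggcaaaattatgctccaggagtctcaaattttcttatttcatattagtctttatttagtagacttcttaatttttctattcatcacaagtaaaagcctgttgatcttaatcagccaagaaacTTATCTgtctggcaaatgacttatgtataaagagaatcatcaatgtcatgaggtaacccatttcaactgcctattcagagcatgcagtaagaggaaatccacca
In CPA3 the word AGATAA began at bases -173 and -45 from the start site, on the strand of the gene. In HPGDS a word began at base -111 and another at base -45, both on the opposite strand. The word began at base -122 in FCER1A and at base -54 in MS4A2, again on the opposite strand. TPSAB1 and TPSB2 were not matched in the table. A match is a stretch of letters and not a measured binding site, and no binding was measured here.

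Per length of exon, the mast cell genes spanned about 2 orders of magnitude in RPKM, and 8 of the 9 were at or above percentile 93.2 of the genes with a count in any library. CPA3 (ENSG00000163751; hg19 chromosome 3, 148583043 to 148614983, plus strand) had the highest mean at 224 RPKM and ranked 104 among the 26786 genes with a count in any library. HDC (ENSG00000140287; chromosome 15, 50534144 to 50558223, minus strand) followed at 183 RPKM, rank 133. GATA2 (ENSG00000179348; chromosome 3, 128198270 to 128212028, minus strand) had 127 RPKM, rank 214, and GATA1 (ENSG00000102145; chromosome X, 48644962 to 48652716, plus strand) had 69.6 RPKM, rank 475. Both GATA factors were therefore among the more abundant messages of these cells, with GATA2 above GATA1 in all 8 libraries. TPSAB1 (ENSG00000172236; chromosome 16, 1290697 to 1292555, plus strand) averaged 58.3 RPKM and its neighbour TPSB2 (ENSG00000197253; chromosome 16, 1277272 to 1280214, minus strand) 27.5 RPKM. HPGDS (ENSG00000163106; chromosome 4, 95219686 to 95264027, minus strand) averaged 29.2 RPKM and FCER1A (ENSG00000179639; chromosome 1, 159259504 to 159278014, plus strand) 26.3 RPKM. MS4A2 (ENSG00000149534; chromosome 11, 59855734 to 59863444, plus strand) was the exception at 1.91 RPKM, rank 11904, with a range over the 8 libraries of 0.874 to 2.57 RPKM.

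Most neighbours in this order were separate in every library, and 4 pairs had ranges that met. CPA3 ranged from 204.7 to 241 RPKM and HDC from 158 to 207.6 RPKM, with CPA3 the higher in 8 of 8 libraries. GATA1 ranged from 63.6 to 74.7 RPKM and TPSAB1 from 47.1 to 72.2 RPKM, with GATA1 the higher in 8 of 8. HPGDS was above TPSB2 in 5 of 8 libraries, and TPSB2 above FCER1A in 4 of 8, so that the order of these 3 genes is not fixed beyond their spread. In a bulk library, fewer cells of a type and less RNA per cell cannot be told apart.

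**Figure D1:**
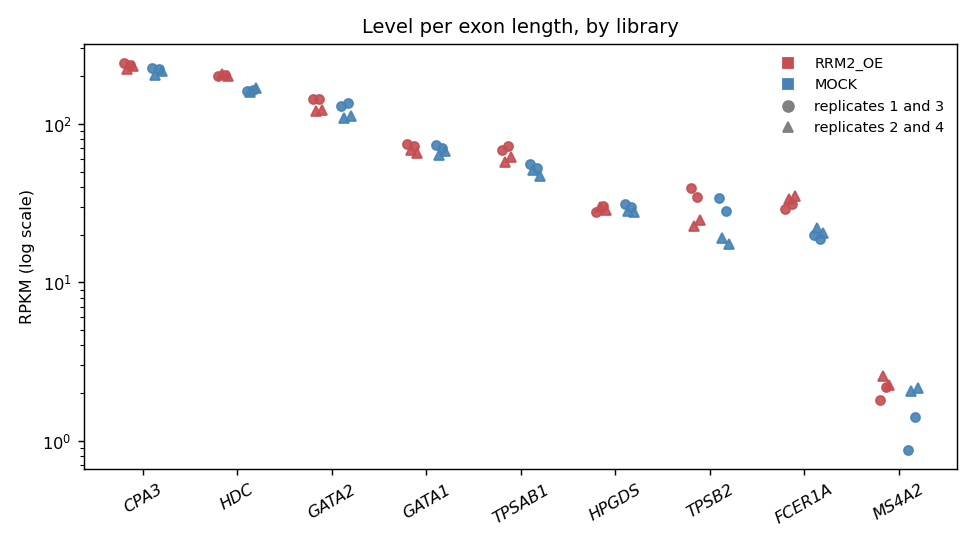
RPKM of the 9 genes in each of the 8 libraries on a log axis, ordered by mean level, with RRM2_OE and MOCK libraries in separate colours. CPA3, at 224 RPKM on average, leads the order and MS4A2, at 1.91 RPKM, stands apart below the other 8 genes.

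The 2 GATA factors did not pass the test between the groups. GATA1 had 113, 101, 109.9 and 96.2 CPM in RRM2_OE libraries 1 to 4, against 114, 96.1, 106 and 99.3 CPM in MOCK libraries 1 to 4. Both groups covered the same range, with the odd libraries above the even ones. Its log2 fold change was 0.02 (SE 0.07, 95% interval -0.12 to 0.16, edgeR adjusted p = 0.898). Within replicates 1 and 3 it was 0.02 and within replicates 2 and 4 it was 0.02.

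GATA2 had 649, 532, 641 and 538 CPM in RRM2_OE libraries 1 to 4, against 597, 489, 602 and 495 CPM in MOCK libraries 1 to 4. The groups overlapped, but each RRM2_OE library lay above the MOCK library of the same number. Between the groups the log2 fold change was 0.11 (SE 0.09, 95% interval -0.09 to 0.31, edgeR adjusted p = 0.484). With replicate number as a block it was again 0.11 and passed the threshold (edgeR adjusted p = 6.27e-04). Within replicates 1 and 3 it was 0.10, and within replicates 2 and 4 it was 0.12. An antisense gene on the other strand of the locus, GATA2-AS1, had 90 to 131 counts a library.

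The balance of the 2 factors was also followed as a ratio of counts, which does not depend on library scaling. The ratio of GATA1 to GATA2 was 0.174, 0.190, 0.172 and 0.179 in RRM2_OE libraries 1 to 4, against 0.190, 0.196, 0.176 and 0.201 in MOCK libraries 1 to 4. It was the lower in RRM2_OE for each of the 4 same-numbered pairs, while the 2 groups overlapped. The difference of mean log2 ratios was -0.09, and a 2-sided exact permutation test over libraries gave p = 0.143, where 0.0286 is the smallest p that 4 libraries a group allow. Within same-numbered pairs the exact p was 0.125, the smallest that 4 pairs allow, so the paired test could not reach the threshold.

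HDC and FCER1A rose in RRM2_OE, and their libraries did not overlap between the groups. HDC, the only enzyme that makes histamine from histidine, had 805, 809, 808 and 780 CPM in RRM2_OE libraries 1 to 4, against 656, 631, 648 and 658 CPM in MOCK libraries 1 to 4. The 4 RRM2_OE libraries lay close together, with the fourth slightly under the other 3, and all lay well above MOCK. The fold change was 1.23 (log2 0.30, SE 0.04, 95% interval 0.21 to 0.39, edgeR adjusted p = 5.02e-04). It was 0.30 on the log2 scale both within replicates 1 and 3 and within replicates 2 and 4.

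FCER1A, the chain of the receptor that binds IgE, had 34.3, 38.7, 36.8 and 40.4 CPM in RRM2_OE libraries 1 to 4, against 23.7, 25.7, 21.8 and 23.6 CPM in MOCK libraries 1 to 4. Every RRM2_OE library was above every MOCK library by a wide margin. The fold change was 1.58, the largest among the called members (log2 0.66, SE 0.07, 95% interval 0.50 to 0.82, edgeR adjusted p = 1.12e-04). It was 0.64 on the log2 scale within replicates 1 and 3 and 0.68 within replicates 2 and 4. HDC and FCER1A kept their calls under all 22 other settings that were tried.

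MS4A2, the beta chain that amplifies the receptor's signal, was thinly covered, with 41, 57, 50 and 50 counts in RRM2_OE libraries 1 to 4 and 20, 46, 31 and 46 counts in MOCK libraries 1 to 4. On the CPM scale these were 3.57, 4.96, 4.33 and 4.32 in RRM2_OE and 1.76, 4.07, 2.78 and 4.13 in MOCK. The low values of MOCK were those of the odd libraries, and the even MOCK libraries lay within the range of RRM2_OE. A log2 fold change of 0.43 did not pass (SE 0.22, 95% interval -0.05 to 0.92, edgeR adjusted p = 0.244). It passed narrowly with the replicate block (edgeR adjusted p = 0.0492), and was 0.80 within replicates 1 and 3 and 0.18 within replicates 2 and 4. The interval without the block leaves room for no difference and for a change near that of FCER1A alike. The parts of depth and of the odd/even split in its width were not tested.

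Markers of other cell types differed between the groups in the same libraries. The summed level of 12 monocyte markers was 2631 to 2820 CPM in RRM2_OE and 2087 to 2267 CPM in MOCK. LYZ made up most of that sum, and without it the range was 513 to 567 CPM in RRM2_OE and 442 to 492 CPM in MOCK. Of the 10 monocyte markers tested, 4 rose (40%, against 7.41% of all genes), and none of the 12 was at 0 in every library. The summed level of 10 T and NK cell markers was 67.6 to 82.6 CPM in RRM2_OE and 47.2 to 52.0 CPM in MOCK. Of these, 4 of 5 tested were higher (80%, against 7.41% of all genes), while CD3E had 2 to 8 counts a library and was too low to test. CD8A, among the 4, was about as low as CD3E in MOCK and passed the filter only through RRM2_OE. The share therefore follows in part from the filter. Of 8 eosinophil genes tested, 3 fell (37.5%, against 5.42% of all genes) and 1 rose (12.5%, against 7.41%). The list of 10 summed to 632 to 664 CPM in RRM2_OE and 808 to 910 CPM in MOCK, and without RNASE2, its most abundant gene, to 171 to 198 CPM in RRM2_OE and 205 to 219 CPM in MOCK. Their part in the rises of HDC and FCER1A was not tested.

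The 3 granule protease genes all had positive fold changes, and only TPSAB1 passed the test without the block. CPA3 had 449.9, 404, 439.7 and 422 CPM in RRM2_OE libraries 1 to 4, against 429, 382, 408 and 390.5 CPM in MOCK libraries 1 to 4. The groups overlapped, and each RRM2_OE library was above the MOCK library of its number. CPA3 had a log2 fold change of 0.09 (SE 0.05, 95% interval -0.02 to 0.20, edgeR adjusted p = 0.285), and it passed with the replicate block (edgeR adjusted p = 0.00533). Within replicates 1 and 3 it was 0.08, and within replicates 2 and 4 it was 0.10.

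TPSAB1, which encodes alpha or beta tryptase depending on the allele, had 104, 86.1, 110.0 and 92.1 CPM in RRM2_OE libraries 1 to 4, against 86.3, 77.8, 80.1 and 70.3 CPM in MOCK libraries 1 to 4. The groups met only where the lowest RRM2_OE library touched the highest MOCK library. The fold change was 1.25 (log2 0.32, SE 0.08, 95% interval 0.14 to 0.50, edgeR adjusted p = 0.0253). Its log2 fold change stayed between 0.26 and 0.37 on leaving out any 1 library, while 5 of these 8 fits missed the threshold. The adjusted p was 0.0697 without RRM2_OE 1, 0.0623 without RRM2_OE 3, 0.0620 without MOCK 2, 0.0531 without MOCK 3 and 0.0664 without MOCK 4 (edgeR). Within replicates 1 and 3 the log2 fold change was 0.36, and within replicates 2 and 4 it was 0.27. Both passed, in fits of 2 libraries a group whose spread may be technical.

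TPSB2, which encodes beta tryptase, had 62.4, 34.7, 54.4 and 38.1 CPM in RRM2_OE libraries 1 to 4, against 54.8, 29.7, 43.8 and 26.8 CPM in MOCK libraries 1 to 4. Odd libraries were high and even libraries low in both groups, and the groups overlapped. TPSB2 had a log2 fold change of 0.29, close to that of TPSAB1, with a wider error (SE 0.26, 95% interval -0.31 to 0.89, edgeR adjusted p = 0.551). With the replicate block it was 0.29 and passed (edgeR adjusted p = 9.11e-05). It was 0.24 within replicates 1 and 3 and 0.36 within replicates 2 and 4.

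The tryptase counts are uncertain, because the genes are near-identical copies. Of the 1303 windows of 50 bases along the longest coding transcript of TPSB2 in GENCODE 29, 941 (72.2%) occur letter for letter in a transcript of TPSAB1, and of the 1308 windows of TPSAB1, 942 (72.0%) occur in TPSB2. At 100 bases the shares were 58.5% for TPSB2 and 58.3% for TPSAB1. No source used here gives how reads that fit both genes were counted. The ratio of TPSAB1 to TPSB2 counts was 1.66, 2.48, 2.02 and 2.42 in RRM2_OE libraries 1 to 4, against 1.58, 2.62, 1.83 and 2.62 in MOCK libraries 1 to 4. The even libraries had the higher ratio in both groups, without overlap with the odd ones. The difference of mean log2 ratios between the groups was 0.01 (2-sided exact permutation p = 0.943), 0.11 within replicates 1 and 3 and -0.10 within replicates 2 and 4.

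**Figure D2:**
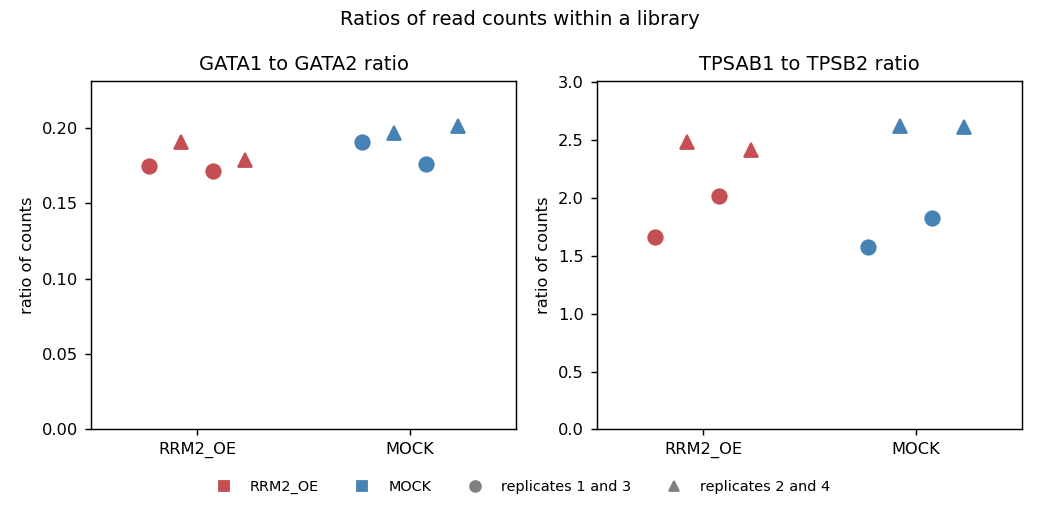
Ratio of GATA1 to GATA2 counts and of TPSAB1 to TPSB2 counts in each library, RRM2_OE to the left of MOCK, with odd and even replicate numbers marked. The GATA ratio lies between 0.172 and 0.201 throughout, and the tryptase ratio falls into an odd range of 1.58 to 2.02 and an even range of 2.42 to 2.62.

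HPGDS did not pass the test and had a narrow spread. It had 59.5, 62.2, 64.0 and 59.7 CPM in RRM2_OE libraries 1 to 4, against 67.6, 60.3, 62.7 and 58.0 CPM in MOCK libraries 1 to 4. The RRM2_OE libraries lay inside the range of MOCK. The log2 fold change was -0.02 (SE 0.06, 95% interval -0.14 to 0.11, edgeR adjusted p = 0.885), and it was -0.08 within replicates 1 and 3 and 0.04 within replicates 2 and 4.

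Counted together, 3 of the 9 genes (33.3%) were called higher in RRM2_OE, against 7.41% of all genes tested, and 0 were called lower, against 5.42%. With DESeq2 and with limma-voom the counts were also 3 and 0, and 3 of the 9 had an unadjusted edgeR p below 0.05, all of them higher. The log2 fold change was positive for 8 of the 9. The libraries of the 2 groups did not overlap for 2 of the 9 (22.2%), which is near the 19.4% of all genes tested. With the replicate block 7 of the 9 were called higher (77.8%), against 15.1% of all genes in that fit, and 0 were called lower, against 14.0%. The block assumes that like-numbered libraries are pairs, which the labels do not say. Within replicates 1 and 3 alone 5 of the 9 were called higher (55.6%), against 9.54% of all genes, and within replicates 2 and 4 alone also 5, against 9.05%. TPSAB1, TPSB2, HDC and FCER1A were called in both, MS4A2 within replicates 1 and 3, and GATA2 within replicates 2 and 4. Between 2 libraries of a group the chi-square per degree of freedom was 1.47 to 2.90 within odd or even numbers. Across odd and even numbers it was 6.18 to 12.0, where counting noise alone gives about 1. The p-values of the block and of these smaller fits rest on the smaller spread, which may be technical. They are no added evidence for the calls. A set of 9 genes chosen for their level, several of which vary together, gives no independent test of direction.

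**Figure D3:**
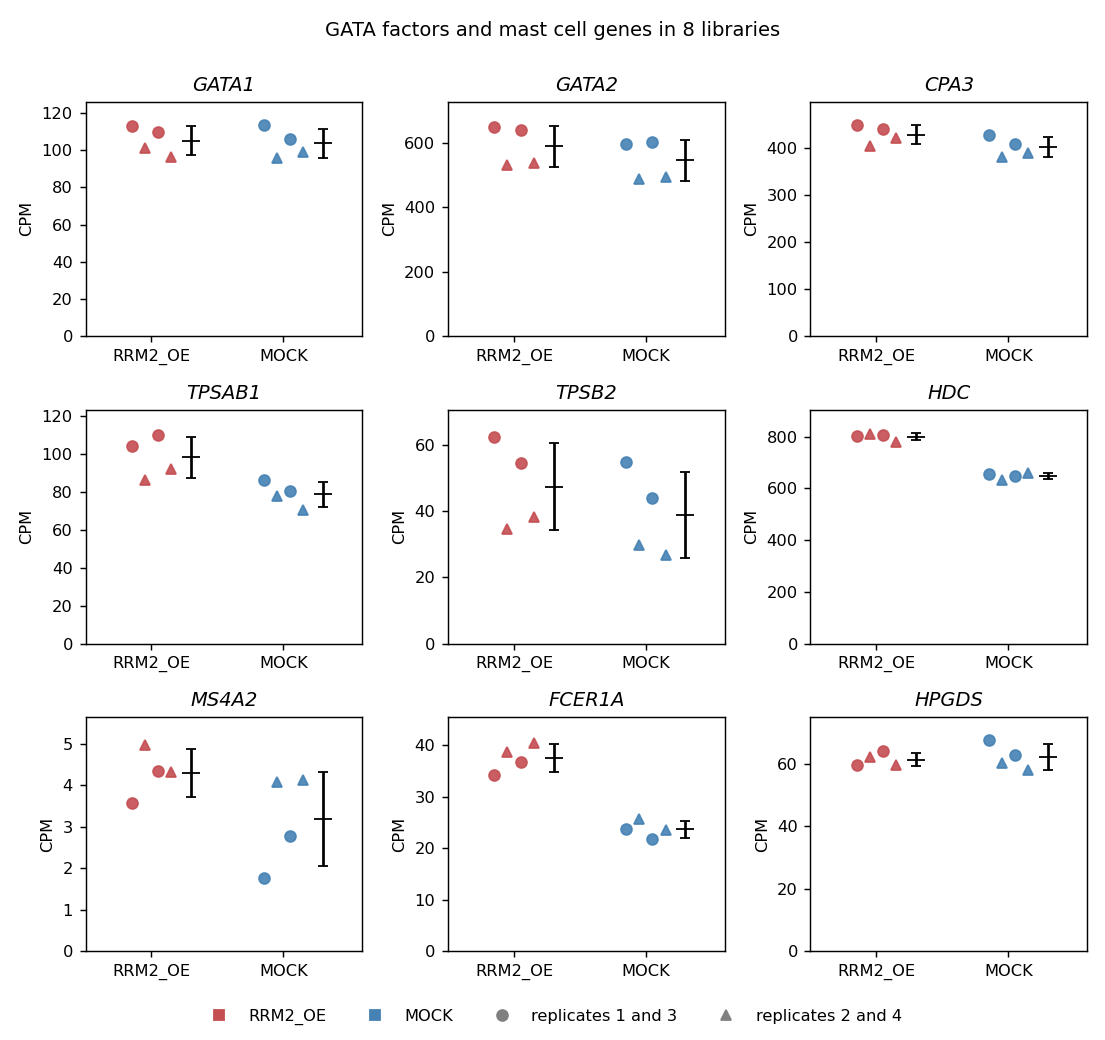
CPM of each of the 9 genes in the 8 libraries, RRM2_OE to the left of MOCK, with group means and SDs and with odd and even replicate numbers marked. HDC, at 780 to 809 CPM in RRM2_OE and 631 to 658 CPM in MOCK, and FCER1A separate the groups, while GATA1, GATA2 and TPSB2 separate odd from even libraries.

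**Figure D4:**
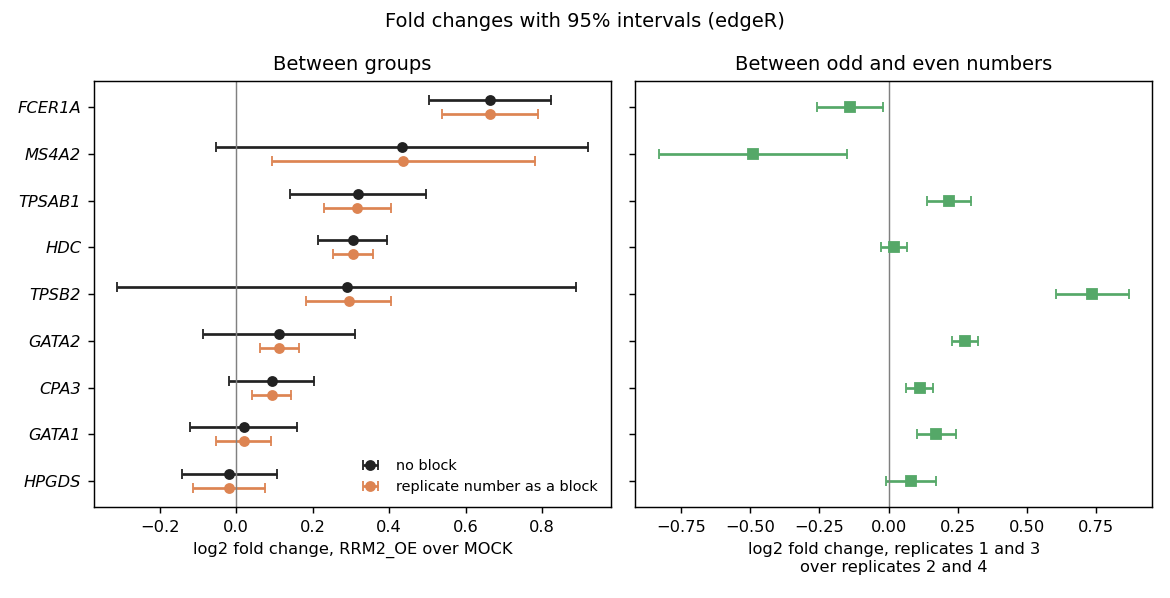
Log2 fold change of RRM2_OE over MOCK for the 9 genes, with 95% intervals, from the test without and with replicate number as a block. The estimates stay in place and the intervals narrow with the block, most for TPSB2, whose estimate is 0.29 in both.

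Within the groups the 9 genes varied to very different degrees. The coefficient of variation of TPSB2 was 27.9% in RRM2_OE and 33.5% in MOCK, while that of HDC was 1.69% in RRM2_OE and 1.92% in MOCK. Much of the spread lay between odd and even libraries: 5 of the 9 (55.6%) were called higher in odd than in even libraries, against 15.4% of all genes, and 1 (11.1%), MS4A2, was called lower, against 15.0%. Because the split was found in these same data, the p-values of odd over even describe it and do not test it. TPSB2 had 43.8 to 62.4 CPM in odd libraries and 26.8 to 38.1 CPM in even ones (log2 difference 0.74, edgeR adjusted p = 2.30e-10). GATA2 had 597 to 649 CPM in odd libraries and 489 to 538 CPM in even ones (log2 difference 0.28, edgeR adjusted p = 3.57e-14). GATA1 had 106 to 114 CPM in odd libraries and 96.1 to 101 CPM in even ones (log2 difference 0.17, edgeR adjusted p = 1.09e-04). These 3 were the genes whose odd and even libraries did not overlap, 33.3% of the 9 against 19.3% of all genes tested. The difference of odd over even was 0.22 for TPSAB1 and 0.11 for CPA3, both called, and -0.49 for MS4A2 (edgeR adjusted p = 0.0221). HDC at 0.02, FCER1A at -0.14 and HPGDS at 0.08 did not pass. The mitochondrial share given above moved with the same split, and its part in these differences was not tested.

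Across the 8 libraries some members fell in with one another along these 2 divisions. The Pearson correlation of log2 CPM was 0.96 between GATA2 and TPSB2, 0.93 between CPA3 and TPSB2, 0.90 between GATA2 and CPA3 and 0.88 between GATA1 and GATA2. HDC and FCER1A correlated at 0.93 with each other, and with GATA1 at 0.19 for HDC and -0.09 for FCER1A. TPSAB1 ran with genes of both kinds, at 0.88 with CPA3 and 0.79 with HDC. MS4A2 correlated at 0.64 with FCER1A and -0.60 with GATA1, and HPGDS at 0.61 with GATA1, its highest. These values describe 8 points that share the group and the odd/even split. Among tested genes with at least 5 CPM on average, the 3 whose levels ran most like those of each member were, for GATA2, CYBA (r = 0.994), SIGLEC6 (0.993), a lectin of mast cells and trophoblast, and SYNGR2 (0.992). For GATA1 they were FLAD1 (0.985), ARHGAP33 (0.984) and MAFG (0.982), a small Maf partner of NFE2. For TPSB2 they were IL2RG (0.989), SH3BP2 (0.987) and ATF4 (0.984), and for CPA3 CH25H (0.984), DDX11 (0.980) and IFITM3 (0.977). None of these 12 genes passed the test between the groups (lowest edgeR adjusted p = 0.109, CH25H).

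The partners of the 3 called members did pass it. All partners were picked over libraries that hold the group difference, so whether they pass follows largely from that choice. HDC ran most like CD177 (r = 0.991), SCN4B (0.990) and RAB15 (0.989), whose log2 fold changes were 1.30, 1.54 and 0.78. FCER1A ran most like NABP1 (0.995), ACP5 (0.992) and MAP1LC3B (0.991), whose log2 fold changes were 0.44, 0.35 and 0.30. TPSAB1 ran most like CSRNP1 (0.994), DUSP6 (0.993) and CD44 (0.990), whose log2 fold changes were 0.35, 0.25 and 0.38. For MS4A2 the closest genes were CTPS1 (0.965), SNAPC1 (0.965) and GBP3 (0.964), and for HPGDS CPXM1 (0.974), CIDEB (0.949) and MPV17L (0.944). With 8 libraries, correlations of this size are a ranking and no measure of shared control.

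A list of 22 genes joined GATA cofactors with other regulators of blood cells and the receptor KIT. Of the 21 tested, 8 fell (38.1%, against 5.42% of all genes) and 1 rose (4.76%, against 7.41%), with a median log2 fold change of -0.11, against -0.00 over all genes tested. FLI1, an ETS factor of megakaryocytes, averaged 104 ± 2.2 CPM in RRM2_OE and 127 ± 6.66 CPM in MOCK (log2 fold change -0.29, edgeR adjusted p = 0.00193). MYB, a factor of blood progenitors, averaged 433 ± 11.0 CPM in RRM2_OE and 515 ± 10.7 CPM in MOCK (-0.25, edgeR adjusted p = 0.00211), with an antisense gene of 541 to 855 counts across its locus. IKZF2, an Ikaros family factor, averaged 80.8 ± 2.17 CPM in RRM2_OE and 96.4 ± 3.30 CPM in MOCK (-0.25, edgeR adjusted p = 0.00307). LYL1, STAT5A, ERG, KIT and GFI1 also fell, by 0.22, 0.18, 0.36, 0.15 and 0.14 on the log2 scale. KIT, the stem cell factor receptor on which mast cells depend, averaged 281 ± 6.88 CPM in RRM2_OE and 311 ± 5.41 CPM in MOCK (edgeR adjusted p = 0.0323), and its call and that of GFI1 were lost on leaving out any single library. GFI1B, a repressor of erythroid and megakaryocyte cells, was the 1 that rose, with 40.9 ± 3.93 CPM in RRM2_OE and 32.8 ± 2.66 CPM in MOCK (0.32, edgeR adjusted p = 0.0222). Its call was lost without RRM2_OE 1, RRM2_OE 3, MOCK 3 or MOCK 4. The cofactors ZFPM1, TAL1, LMO2 and LDB1 were not among the called genes, with log2 fold changes of -0.01, -0.12, -0.11 and -0.15. LMO2 passed with the block (edgeR adjusted p = 0.0298), as did LDB1 (edgeR adjusted p = 1.84e-04). Under the block 2 of the 21 rose and 11 fell, where 15.1% of all genes rose and 14.0% fell. GATA3, the factor of T cells, had 0 to 4 counts a library.

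Other genes of mast cells and basophils were present in part. Of 33 measured, 17 had at least 10 CPM in every library and 10 were under 1 CPM in every library. The levels of SRGN, the core protein of granule proteoglycans, averaged 7671 RPKM, and those of SIGLEC6 137, of IL1RL1, the IL-33 receptor, 69.5, and of KIT 53.1 RPKM. An unnamed gene on the opposite strand of SIGLEC6 had 1285 to 1463 counts a library. At the other end, MRGPRX2, the receptor of connective tissue mast cells, and MAOB had 0 counts in every library, which allows up to 3 counts or 0.257 to 0.273 CPM of unscaled library size. CMA1, the chymase, had 0 to 4 counts a library. Of the 23 tested, 4 rose (17.4%, against 7.41% of all genes) and 1 fell (4.35%, against 5.42%), with a median log2 fold change of 0.12. With the block 10 of the 23 rose and 3 fell, where 15.1% of all genes rose and 14.0% fell. CTSG, the granule protease cathepsin G, averaged 268 ± 17.2 CPM in RRM2_OE and 379 ± 17.6 CPM in MOCK (-0.50, edgeR adjusted p = 1.10e-04), the opposite direction to TPSAB1. VWA5A averaged 191 ± 10.4 CPM in RRM2_OE and 160 ± 6.80 CPM in MOCK (0.25, edgeR adjusted p = 0.00652). RAB27B, which docks granules at the membrane, averaged 27.0 ± 1.34 CPM in RRM2_OE and 22.1 ± 1.13 CPM in MOCK (0.29, edgeR adjusted p = 0.0161). IL1RL1 at 0.24 and GCSAML at 0.14 were called too. The call of IL1RL1, which shares its span and strand with IL18R1, was lost without RRM2_OE 2, RRM2_OE 4, MOCK 1 or MOCK 3, and that of GCSAML on leaving out any single library.

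Signalling genes of the IgE receptor were called about as often as genes at large: of 17 tested, 1 rose (5.88%, against 7.41% of all genes) and 1 fell (5.88%, against 5.42%). FCER1G, the gamma chain that completes the receptor, averaged 192 RPKM over the 8 libraries, against 26.3 RPKM for FCER1A and 1.91 RPKM for MS4A2. It averaged 202 ± 27.8 CPM in RRM2_OE and 168 ± 30.8 CPM in MOCK and was not called (0.27, edgeR adjusted p = 0.233). Of the 17, FCER1G among them, 15 had at least 10 CPM in every library, and the median log2 fold change was -0.00. LYN, the kinase that phosphorylates the receptor, rose by a log2 fold change of 0.16 (edgeR adjusted p = 0.0260), and INPP5D, a lipid phosphatase that dampens its signal, fell by 0.17 on the log2 scale (edgeR adjusted p = 0.0497). Both calls were lost without RRM2_OE 3, RRM2_OE 4, MOCK 3 or MOCK 4, that of LYN also without RRM2_OE 2, and that of INPP5D also without RRM2_OE 1 or MOCK 2. With the block 3 of the 17 rose and 1 fell, where 15.1% of all genes rose and 14.0% fell.

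Other genes of histamine, prostaglandin or leukotriene metabolism were called higher or not called, in lists too short to weigh the shares. Of 6 histamine genes tested beside HDC, 1 (16.7%, against 7.41% of all genes) rose, HNMT, which inactivates histamine by methylation, and the other 5 were not called. HNMT was low, at 3.80 ± 0.410 CPM in RRM2_OE and 2.34 ± 0.235 CPM in MOCK (0.70, edgeR adjusted p = 0.0110). SLC18A2, which loads histamine into granules, was not called at -0.19 (edgeR adjusted p = 0.0924) and passed as lower with the block (edgeR adjusted p = 0.0116). With the block 1 of the 6 histamine genes rose and 1 fell. Of 15 prostaglandin and leukotriene genes tested beside HPGDS, 2 rose (13.3%, against 7.41% of all genes) and 13 were not called, with a median log2 fold change of 0.01. In either list 0 fell, against 5.42% of all genes. With the block 4 of the 15 rose and 1 fell, where 15.1% of all genes rose and 14.0% fell. The 1 that fell was HPGD, which breaks prostaglandins down (-0.12, edgeR adjusted p = 0.0292). ALOX5, which begins leukotriene synthesis, averaged 34.5 ± 2.08 CPM in RRM2_OE and 23.4 ± 1.93 CPM in MOCK (0.56, edgeR adjusted p = 4.38e-04). PTGS2, the inducible cyclooxygenase, averaged 375 ± 19.7 CPM in RRM2_OE and 308 ± 14.6 CPM in MOCK (0.28, edgeR adjusted p = 0.00344). PTGS1, the other cyclooxygenase, was not called at 0.10 (edgeR adjusted p = 0.407, and 0.00701 with the block). LTC4S, which makes leukotriene C4, had 0 to 4 counts a library. It shares span and strand with MAML1, which had 888 to 1105 counts. How reads that fit both were counted is not given, so its low count need not mean absence.

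Genes that GATA1 is known to drive in erythroid cells and megakaryocytes were lower where they were called, with 1 exception. Of 18 tested, 5 fell (27.8%, against 5.42% of all genes) and 1 rose (5.56%, against 7.41%), with a median log2 fold change of -0.20. With the block 10 of the 18 fell and 1 rose, where 14.0% of all genes fell and 15.1% rose. ALAS2, the first enzyme of haem synthesis in red cells, averaged 19.2 ± 0.923 CPM in RRM2_OE and 30.2 ± 2.16 CPM in MOCK (-0.66, edgeR adjusted p = 1.24e-04). The gamma globin genes HBG2 and HBG1 fell by 0.64 and 0.57 on the log2 scale (edgeR adjusted p = 2.20e-04 and 0.00173), as near-identical copies whose reads may be split between them. AHSP, which stabilises alpha globin, fell by 1.09 on the log2 scale at 1.02 ± 0.377 CPM in RRM2_OE and 2.2 ± 0.272 CPM in MOCK. The falls stood beside a log2 fold change of 0.02 for GATA1 itself. The calls of SLC4A1, which fell, and of ITGA2B, which rose, were lost in 6 and in 7 of the 8 fits that left out a library. RNASE2, RNASE3 and EPX, granule proteins of eosinophils, fell by 0.51, 0.41 and 0.69 on the log2 scale, and CLC, the crystal protein shared by eosinophils and basophils, rose by 0.31, in a list of 10 of which 8 were tested.

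The label THP1 was set against markers of monocytes and of other cells. LYZ, the monocyte and granulocyte lysozyme, averaged 2197 ± 113 CPM in RRM2_OE and 1705 ± 118 CPM in MOCK (0.37, edgeR adjusted p = 0.00195), with an unnamed gene of 7581 to 10965 counts on the opposite strand. ITGAM, an integrin chain of myeloid cells, rose by a log2 fold change of 0.33 (edgeR adjusted p = 0.00432). CD14, the monocyte receptor for endotoxin, averaged 13 ± 0.765 CPM in RRM2_OE and 9.72 ± 0.833 CPM in MOCK (0.41, edgeR adjusted p = 0.0121). CSF1R was called as well, at 0.25. CD68, a lysosomal protein of monocytes and macrophages, had 3 to 13 counts a library. It shares span and strand with an unnamed gene of 0 to 2 counts, and span with another, of 145 to 187 counts, on the opposite strand. How reads that fit CD68 and a neighbour were counted is not given, nor whether counting used strand. Its low count therefore need not mean low expression. Of the 12 monocyte markers 6 had at least 10 CPM in every library, so that they were present in part, beside the mast cell and GATA genes above. CD8A, CD3D and NKG7, markers of T and NK cells, had log2 fold changes of 1.91, 0.55 and 0.62 and were called, at 1.28 ± 0.291 CPM in RRM2_OE and 0.334 ± 0.0465 CPM in MOCK for CD8A. In MOCK, CD8A was near the floor and about as low as CD3E, which was not tested. It passed the filter only through RRM2_OE, so the size of its change is uncertain. The B cell markers summed to 12.9 to 14.8 CPM in RRM2_OE and 10.8 to 13.2 CPM in MOCK. Of these, CD79A was called at 0.63, a call lost in 6 of the 8 fits that left out a library. The markers of non-haematopoietic cells summed to 31.4 to 35.3 CPM in RRM2_OE and 27.7 to 34.1 CPM in MOCK, with KRT19 at 0 in every library and neither of the 2 tested called.

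**Figure D5:**
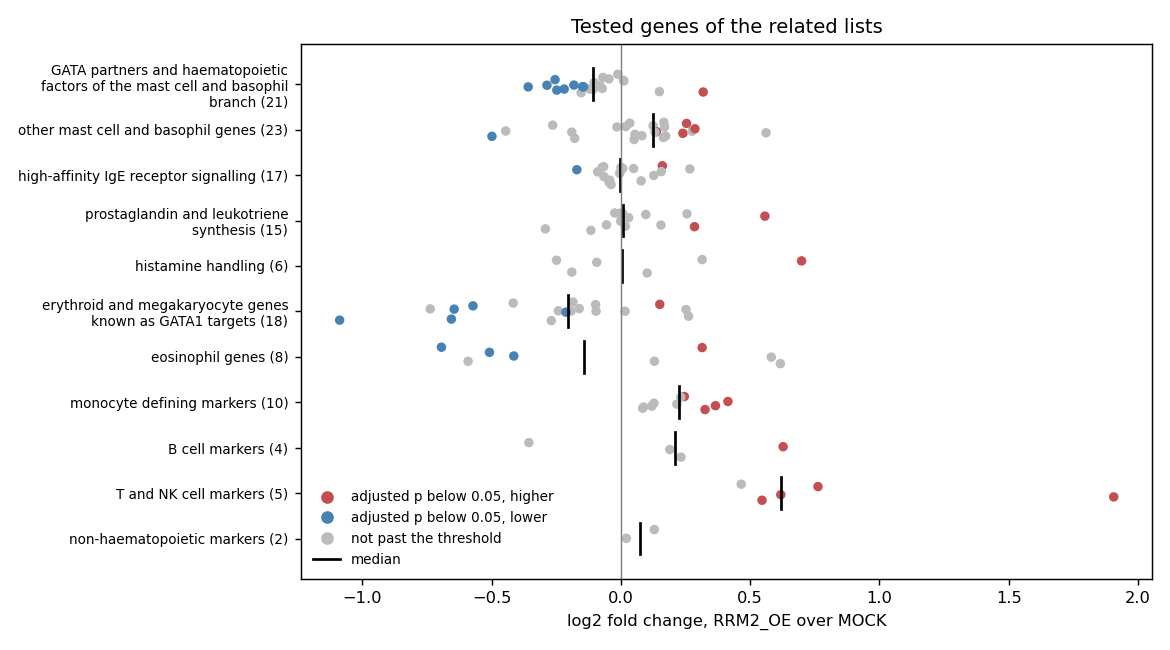
Log2 fold change of RRM2_OE over MOCK for every tested gene of the 11 lists, 1 point a gene, with called genes in colour and the list median marked. The erythroid and megakaryocyte list has the lowest median, at -0.20, and the T and NK cell list the highest, at 0.62.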

How the data were processed

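Per the labels' protocols, 200 ng of total RNA per sample went into a stranded poly(A) kit from Kapa. Tools listed in the submitters' processing notes are bcl2fastq 2.18.0.12, TopHat2 and HTSeq 0.11.2, on hg19 (GRCh37). No source used here gives the annotation or whether counting used strand. The deposited table held whole-number counts per Ensembl gene, and the authors' RPKM was recomputed from counts, column totals and exon length to within 4.7e-06.

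RRM2_OE was tested against MOCK on counts with edgeR 4.0.16 in R 4.3.3 (filterByExpr, TMM factors, robust quasi-likelihood F tests, no covariate), and each SE is the absolute log2 fold change divided by the root of F. Symbols came by Ensembl ID for 32562 genes from a current table and for 299 from GENCODE 29. Alternatives were DESeq2 1.42.0, limma-voom (limma 3.58.1), limma on log2 of the deposited RPKM plus 1 or 0.1, other scalings and filters, a stricter threshold, a replicate block, an odd/even term, replicates 1 and 3 or 2 and 4 alone, and leaving out each library.

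For the block, the replicate numbers of the labels were taken to pair the libraries. Deviations of same-numbered libraries from their group means correlated at 0.346, 0.314, 0.298 and 0.315. Differently numbered libraries were not compared across the groups, and the odd/even split alone can give positive values. These correlations therefore cannot show that the numbers mark pairs. The members, the 11 other gene lists (1 of 173 entries unmatched) and the tests were chosen with earlier results of these data known. Named genes are the members, RRM2, up to 3 called genes of a list with the smallest adjusted p, the 3 genes most like each member, and list genes at 0. Others were named after their values were seen.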

Additional observations from a re-analysis of the deposited data

Results flagged for a closer look

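HDC in RRM2_OE 4, at 780 CPM, lay farther from the other 3 RRM2_OE libraries (805 to 809 CPM) than the spread among them by Dixon's test. Of 18 sets of 4 libraries tested, this was the 1 that passed, and chance passes about 1 in 20. The value was still above every MOCK library (631 to 658 CPM), and the HDC call held without that library.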

How the results depend on the processing

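HDC and FCER1A kept direction and call in 22 of 22 alternatives, and TPSAB1 kept its direction in 22 but not its call at an adjusted p below 0.01 or in 5 of 8 fits that left out a library. With the replicate block, 2303 genes were higher and 2143 lower, and with the odd/even term 2427 and 2277; members called higher were 7 in either. The block changed the calls of GATA2, CPA3, TPSB2 and MS4A2 and of no other member. Members called higher were 5 within replicates 1 and 3, against 9.54% of all genes, and 5 within replicates 2 and 4, against 9.05%. MS4A2 was among them only within replicates 1 and 3, and GATA2 only within replicates 2 and 4. Genes lower were 1330 within replicates 1 and 3, 463 with log2(RPKM + 1), 453 with log2(RPKM + 0.1), and 542 to 607 on leaving out a library, lowest without MOCK 2. At an adjusted p below 0.01, 530 genes were higher and 281 lower. Of called genes 57.7% were higher from counts, 68.7% from log2(RPKM + 1) and 68.8% from log2(RPKM + 0.1). The TPSAB1 to TPSB2 ratio turned to -0.10 within replicates 2 and 4 and ranged from -0.13 to 0.12 on leaving out a library. The log2 fold change of HPGDS turned to 0.044 within replicates 2 and 4 and ranged from -0.052 to 0.024 on leaving out a library, and that of GATA1 ranged from -0.018 to 0.066. The causes were not tested. Of 39 genes, RRM2 and the called genes of the lists, 29 kept their call in each fit that left out a library. Counts of MS4A2 were few, at 20 to 57 a library.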
